A study of Mus musculus with 4 samples.

Results

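ATF4 is the transcription factor at the end of the integrated stress response. Kinases that sense amino acid shortage, misfolded protein, double-stranded RNA or haem shortage phosphorylate the initiation factor eIF2alpha, most translation slows, and the Atf4 message is translated more. ATF4 protein then switches on genes for making and importing amino acids and for limiting the stress, many of them through C/EBP-ATF response elements, which it binds with a C/EBP-family partner. The genes described here are Atf4 and 9 of its known targets, taken by symbol from a fixed list: Asns, Phgdh, Psat1, Psph, Shmt2 and Mthfd2 of amino acid and one-carbon metabolism, and Chac1, Trib3 and Ddit4, which act on glutathione, kinase signalling and mTORC1. All 10 were among the 13422 genes of the deposited table, and all 10 were among the 11298 genes tested, those with a mean of at least 1 CPM (the read count of a gene relative to the authors' scaled library size).

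The cells were AML12, an established mouse hepatocyte line that the labels describe as CD-1 strain, line MT42. They were transfected with the plasmid pCMV6-AC-GFP (the Control group, replicates 1 and 3) or with PAV-TBG-P2A-GFP-Chrna4 (the Chrna4 group, replicates 1 and 2), with 2 polyA-selected RNA-seq libraries in each group. Chrna4 encodes a subunit of neuronal nicotinic acetylcholine receptors. Both groups were grown in the same medium with insulin, transferrin, selenium, dexamethasone and serum. The backbones differ as well as the insert, the labels give neither the time after transfection nor an untransfected group, and they leave unsaid whether each replicate was its own culture, so a p-value here speaks for the spread of these libraries, which may be technical.

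Libraries held 31301396 to 32228360 reads on listed genes. Chrna4 itself stood at 0.0308 and 0.0927 CPM in the Control libraries and at 87.1 and 72.5 CPM in the Chrna4 libraries, as the labels say. Of hepatocyte markers, 6 of 13 were listed, with a summed level of 1441 to 1586 CPM in Control and 1498 to 1578 CPM in Chrna4, most of it Apob, and Alb was low at 18.4 ± 0.806 and 8.22 ± 0.412 CPM (SD, n = 2). Biliary markers, 6 of 7 listed, summed to 1257 to 1351 CPM in Control and 931 to 955 CPM in Chrna4. Defining markers of other liver cells were at or near 0, with summed levels of at most 0.246 CPM for 1 listed stellate or fibroblast gene of 8, 0.358 CPM for 1 listed endothelial gene of 6, and 5.27 CPM for 2 listed leukocyte genes of 9, almost all of that from Cd68. In such a bulk sample a change in the share of cells and a change in RNA per cell cannot be told apart.

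The 10 genes differed little between the groups. Trib3 rose by 23.1% and Chac1 by 21.1%. Atf4, Asns, Phgdh, Psat1, Psph, Shmt2 and Mthfd2 did not pass the test, with Chrna4 means 1.02 to 1.12 times the Control means. Ddit4 was the 1 gene with a negative value, at 0.848 of the Control mean, and did not pass either. Thus 2 of 10 were higher and 0 lower in the Chrna4 libraries at an adjusted p under 0.05 by limma-trend. Over all tested genes 9.26% were called higher and 6.66% lower (15.9% in either direction), so with 10 genes the count stands near the background. At an unadjusted p under 0.05, 4 of the 10 passed, against 29.3% of tested genes. The count of calls was also 2 with edgeR on the recovered reads, which called 15.9% of tested genes, and 1, Trib3, with DESeq2, which called 14%. The median log2 change was 0.08 over the 10 genes and -0.0028 over all tested genes. A positive log2 change was found for 9 of the 10, against 49.2% of all tested genes. With library totals as the scaling, which shifts the median of all tested genes by -0.05, the changes of Psat1 and Mthfd2 were negative.

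**Figure D1:**
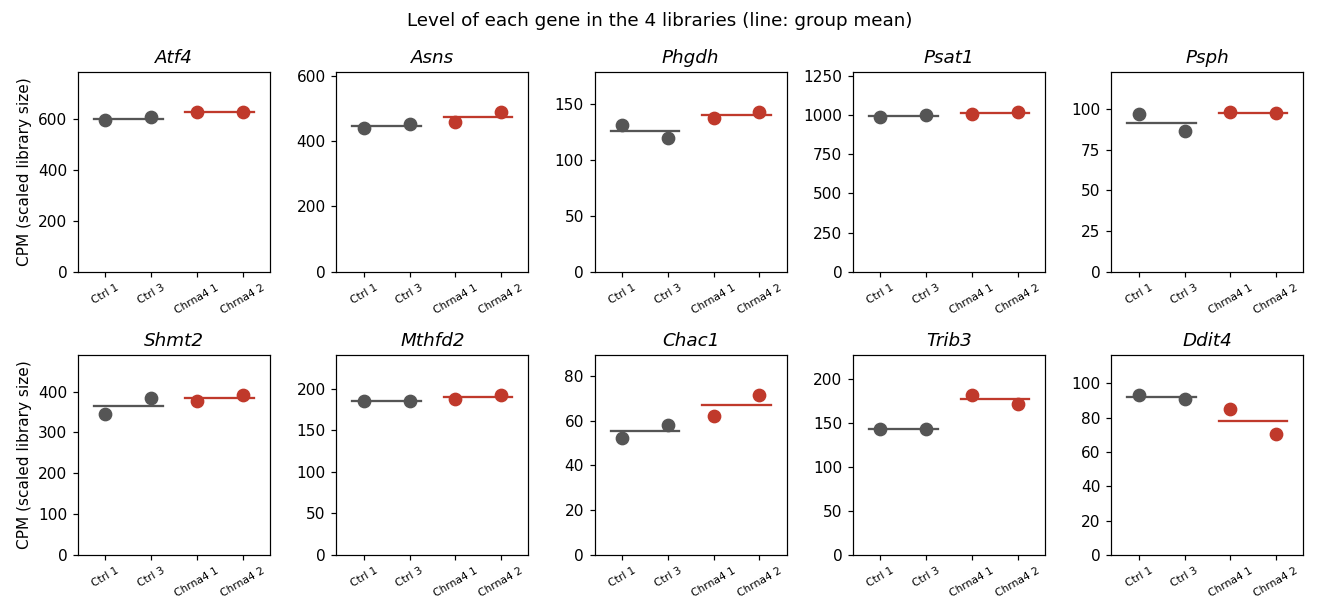
Deposited CPM (vertical axes, each from 0) of the 10 genes in each of the 4 libraries, Control in grey and Chrna4 in red, with a line at each group mean. Trib3 shows the clearest step, from 144 to 177 CPM, Ddit4 is lower in both Chrna4 libraries, and the biosynthetic genes lie almost level.

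The DNA before these genes was read for 2 short motifs, because the targets are known for the element that ATF4 binds. RefSeq promoter windows on GRCm38.p6, from 250 bases before to 50 bases after each start, matched all 10 genes (11 windows, since Psat1 has a pair of starts). TGATGNAA, the core of the C/EBP-ATF response element, was found on one strand or the other in 3 windows, those of Chac1, Trib3 and Asns, against 3.97% of all 32851 windows in the table and 2.23% of the 10842 windows of tested genes. The 30 bases around each match are shown on the strand of the gene, with the match in capitals, because they let the element be compared between both genes that rose and one that did not pass the test.
Chac1: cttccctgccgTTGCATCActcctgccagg
Trib3: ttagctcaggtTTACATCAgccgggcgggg
Asns: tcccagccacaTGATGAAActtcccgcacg
The Asns match read TGATGAAA along the gene and began 23 bases before the RefSeq start, which is inside the gene as GENCODE M21 annotates it, since its start there lies further upstream. The Chac1 match lay on the opposite strand, where it read TGATGCAA, and its first base was 193 bases before the start. The Trib3 match also lay on the opposite strand, as TGATGTAA, 14 bases after the RefSeq start and before the GENCODE M21 start of the gene. Those stretches are at chr2:119351038-119351067 (plus strand), chr2:152344028-152344057 (minus strand) and chr6:7693214-7693243 (minus strand). The cyclic AMP response element TGACGTCA was in none of the 11 windows, in 1.79% of all windows and in 3.13% of the windows of tested genes. With 11 windows, finding none stands near those shares. A match is a description of the letters and not a measured site, and these windows do not cover elements that lie further away. The 10 genes were listed as Atf4 and its known targets, so their share of matches is not independent of that choice. Whether a match goes with a rise was not tested.

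A longer stretch is given for Chac1, whose match lies well before both annotated starts. It runs over 200 bases at chr2:119350992-119351191 on the plus strand of GRCm38.p6, with the match in capitals, and 62% of its bases are G or C.
Chac1 upstream: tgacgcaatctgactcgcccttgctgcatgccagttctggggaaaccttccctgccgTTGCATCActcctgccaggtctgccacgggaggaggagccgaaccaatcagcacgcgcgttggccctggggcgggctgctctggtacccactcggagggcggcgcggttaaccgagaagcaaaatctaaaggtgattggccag

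Atf4 (ENSMUSG00000042406; GRCm38 chromosome 15, 80255184 to 80257541, plus strand, protein-coding) was one of the most abundant messages of the set. It stood at 595 and 607 CPM in Control 1 and Control 3, and at 628 and 626 CPM in Chrna4 1 and Chrna4 2. Both Chrna4 libraries lay above both Control libraries, by 1.03-fold between the nearest of them. The log2 change was 0.06 (SE 0.05, adjusted p = 0.482 by limma-trend), and its 95% interval ran from 0.963-fold to 1.13-fold on the scale of CPM + 1. With 19308 to 19788 reads per library, counting error was at most 0.720% of the level. When libraries were scaled by their totals alone, the log2 change was 0.0088 (adjusted p = 0.934 by limma-trend).

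RNA level is only part of what controls this factor. The annotated Atf4 transcript ENSMUST00000109605 has a leader of 594 bases with 3 ATG triplets before the start of the coding sequence. They open reading frames of 36, 3 and 59 codons. The last of these runs 83 bases past the start of the ATF4 coding sequence in another frame, the known arrangement that keeps ATF4 translation low until eIF2alpha is phosphorylated. The polyA-selected libraries measure message and not protein or phosphorylation, so the amount of ATF4 protein was not measured.

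Among 7447 tested genes outside the lists with a mean of at least 20 CPM, those closest to Atf4 in their centred log2(CPM + 1) values over the 4 libraries were B4galt3, Cep63 and Rnps1. Their root mean square differences from Atf4 were 0.0050, 0.0054 and 0.0057 log2 units, and 163 of the 7447 lay within 0.02. Of the targets, Psat1 was closest at 0.021, then Mthfd2 at 0.024 and Asns at 0.037, and Ddit4 was farthest at 0.180. Atf4 changed little, so by this measure any gene that was nearly level over the libraries lies close to it. B4galt3 and Cep63 stood at 19.6 to 21.6 CPM, below Chac1, whose counting error was 2.43% at 52.3 CPM. The smallest distances are below such counting error, so the order of the closest genes is not settled. Shared control was not tested.

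Asns (ENSMUSG00000029752; chromosome 6, 7675169 to 7693254, minus strand) encodes asparagine synthetase, which makes asparagine from aspartate and glutamine and is the textbook amino acid response gene. It stood at 441 and 453 CPM in Control 1 and 3 and at 458 and 490 CPM in Chrna4 1 and 2. The groups did not overlap, but the nearest libraries differed by only 1.01-fold, less than the Chrna4 libraries differed from each other. The log2 change of 0.08 (SE 0.06) did not pass the test (adjusted p = 0.365 by limma-trend; 95% interval 0.972 to 1.16-fold).

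The serine pathway branches from glycolysis at Phgdh, the dehydrogenase that commits 3-phosphoglycerate to serine, and goes on through the aminotransferase Psat1 and the phosphatase Psph. Phgdh (ENSMUSG00000053398; chromosome 3, 98313170 to 98339990, minus strand) stood at 131 and 119.5 CPM in Control 1 and 3 and at 137 and 143 CPM in Chrna4 1 and 2. Both Chrna4 libraries were above both Control libraries, and the Control libraries differed by 0.13 log2 units, close to the change between groups of 0.16 (SE 0.07, adjusted p = 0.123 by limma-trend). Without Control 1 the log2 change was 0.23, and without Control 3 it was 0.09. Each of these fits leaves 1 Control library and so holds no spread between Control libraries.

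Psat1 (ENSMUSG00000024640; chromosome 19, 15904678 to 15947337, minus strand) was the steadiest of the 10. It stood at 991 and 1000.5 CPM in Control 1 and 3 and at 1006 and 1023 CPM in Chrna4 1 and 2, so that all 4 libraries lay within a narrow band. Its 95% interval of 0.938 to 1.11-fold leaves room only for small changes in either direction (log2 0.03, SE 0.05, adjusted p = 0.787 by limma-trend). With library totals as the scaling, which shifts the median of all tested genes by -0.05, its log2 change was -0.03. Psph (ENSMUSG00000029446; chromosome 5, 129765558 to 129787449, minus strand) stood at 96.7 and 86.3 CPM in Control 1 and 3 and at 98.2 and 97.2 CPM in Chrna4 1 and 2. Control 3 was the low library, and Control 1 lay within 1.01-fold of the nearest Chrna4 library. Its log2 change was 0.10 (SE 0.07, adjusted p = 0.397 by limma-trend), 0.18 without Control 1 and 0.02 without Control 3. Psph shares 452 exonic bases with the oppositely oriented gene Cct6a at 395 CPM, and the sources used here do not state whether reads were assigned by strand, so its level is uncertain.

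Serine then feeds mitochondrial one-carbon metabolism. Shmt2 splits it into glycine and a folate-bound one-carbon unit, and Mthfd2 oxidises that unit. Shmt2 (ENSMUSG00000025403; chromosome 10, 127517123 to 127522444, minus strand) stood at 346 and 384 CPM in Control 1 and 3 and at 376 and 391.7 CPM in Chrna4 1 and 2. It was the 1 gene of the 10 whose groups overlapped. Its log2 change was 0.08 (SE 0.06, adjusted p = 0.470 by limma-trend). That value depended on which Control library was used. It was -0.0006 without Control 1 and 0.15 without Control 3.

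Mthfd2 (ENSMUSG00000005667; chromosome 6, 83305691 to 83325908, minus strand) stood at 186 and 185 CPM in Control 1 and 3 and at 188 and 193 CPM in Chrna4 1 and 2. The groups were apart by 1.01-fold, and the log2 change of 0.04 (SE 0.06, adjusted p = 0.721 by limma-trend; 95% interval 0.942 to 1.12-fold) was -0.02 with library totals, under the same shift of all genes. The summed level of the 5 serine and one-carbon enzymes was 1751 and 1775 CPM in Control and 1806 and 1848 CPM in Chrna4.

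**Figure D2:**
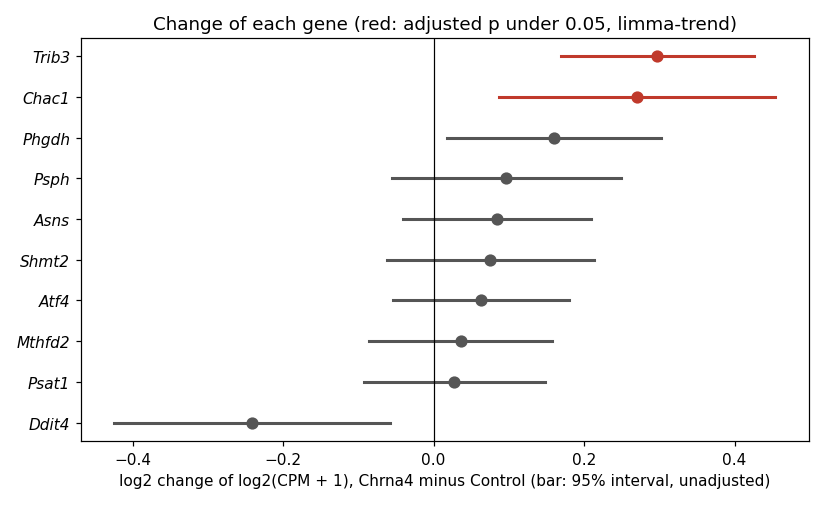
Change of each gene between groups on the log2(CPM + 1) scale (horizontal axis, Chrna4 minus Control) with its 95% interval from limma-trend, not adjusted for the number of genes. Trib3 at 0.30 and Chac1 at 0.27 (red) passed the adjusted threshold, Phgdh at 0.16 and Ddit4 at -0.24 have intervals clear of 0 but did not pass, and the other 6 intervals span 0.

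Trib3 (ENSMUSG00000032715; chromosome 2, 152337422 to 152344032, minus strand) encodes a pseudokinase that binds AKT and also restrains ATF4 itself, and its gene is a shared target of ATF4 and CHOP. It stood at 143.6 CPM in both Control libraries, which differed by 0.0002 log2 units, and at 182 and 172 CPM in Chrna4 1 and 2. The groups were apart by 1.20-fold between the nearest libraries, the widest gap of the 10 genes. The log2 change was 0.30 (SE 0.06, adjusted p = 0.00471 by limma-trend), with a 95% interval of 1.12 to 1.34-fold. Per 1000 Atf4 reads, a measure that no library scaling affects, there were 241 and 237 Trib3 reads in Control 1 and 3 and 289 and 274 in Chrna4 1 and 2. Without Chrna4 1 the log2 change was 0.26 and the call was lost, in a fit that called fewer genes over all tested genes.

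Chac1 (ENSMUSG00000027313; chromosome 2, 119351229 to 119354381, plus strand) encodes a cytosolic enzyme that breaks down glutathione and is induced by ATF4 through CHOP and ATF3 as well as directly. It stood at 52.3 and 58.0 CPM in Control 1 and 3 and at 62.3 and 71.4 CPM in Chrna4 1 and 2. The groups were apart by 1.07-fold between Control 3 and Chrna4 1, while libraries within each group differed by 0.15 and 0.20 log2 units. Its fewest reads, 1699 in Control 1, give a counting error of 2.43%, so counting error is smaller than those differences. The log2 change was 0.27 (SE 0.08) and only just passed (adjusted p = 0.0487 by limma-trend; 95% interval 1.06 to 1.37-fold). It was 0.17 without Chrna4 2 and did not pass (adjusted p = 0.466 by limma-trend). The call was also lost with library totals (adjusted p = 0.104 by limma-trend), with every listed gene tested (adjusted p = 0.0588 by limma-trend) and with DESeq2 on recovered reads (adjusted p = 0.0516). Per 1000 Atf4 reads there were 88.0 and 95.6 Chac1 reads in Control 1 and 3 and 99.1 and 114 in Chrna4 1 and 2.

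Ddit4 (ENSMUSG00000020108; chromosome 10, 59949669 to 59951834, minus strand), also called Redd1, encodes an inhibitor of mTORC1 that answers to ATF4, hypoxia, p53 and glucocorticoids. It stood at 93.3 and 90.9 CPM in Control 1 and 3 and at 85.4 and 70.7 CPM in Chrna4 1 and 2. Both Chrna4 libraries lay below both Control libraries, and they differed from each other by 0.27 log2 units, more than the change between groups. That change was -0.24 (SE 0.08, adjusted p = 0.0735 by limma-trend; 95% interval 0.745 to 0.960-fold). It was -0.11 without Chrna4 2 and -0.38 without Chrna4 1, so its size depended on which Chrna4 library was used. Without Control 1 it was -0.22, and without Control 3 it was -0.26. Among the alternatives that keep all 4 libraries, Ddit4 passed as lower only with library totals (log2 -0.30, adjusted p = 0.0340 by limma-trend).

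In the authors' deposited table, whose sign was turned so that positive means higher in Chrna4, the same 2 of the 10 genes had an adjusted p under 0.05, against 16.8% of all 13422 listed genes. The authors' deposited table gives Trib3 a log2 fold change of 0.30 with an adjusted p-value of 0.000359. It gives Chac1 0.28 with 0.0222. For Ddit4 the authors' deposited table has -0.24 with an adjusted p-value of 0.0529, and for Atf4 0.06 with 0.609.

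Both Chrna4 libraries were above both Control libraries for 8 of the 10 genes, against 28.7% of all tested genes, and below for 1, against 28.8%. In 4 of those 8, namely Asns, Psat1, Psph and Mthfd2, the nearest libraries differed by only 1.01-fold, and the shift of all tested genes with library totals is larger than the changes of Psat1 and Mthfd2. The counts of 8 and 1 hold for the deposited scaling and were not made with library totals. With library totals the log2 changes were 0.0088 for Atf4, 0.030 for Asns and 0.043 for Psph. They were -0.027 for Psat1 and -0.018 for Mthfd2, and 0.11, 0.22 and 0.24 for Phgdh, Chac1 and Trib3. Within the Control pair the median absolute log2 difference was 0.04 for the 10 genes against 0.10 over all tested genes. Between the Chrna4 libraries it was 0.06 against 0.07. The tested genes reach down to a mean of 1 CPM and were not matched to the 10 by level. Control 1 was the higher of the Control pair for 5 of the 10.

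Compared per kilobase of annotated exon, with the exons of all isoforms merged, the Control levels were ordered Atf4 (255 CPM per kilobase), Psat1 (234), Asns (163), Shmt2 (117), Trib3 (67.6), Mthfd2 (53.2), Ddit4 (52.5), Phgdh (50.4), Chac1 (33.7) and Psph (21.1). Mthfd2, Ddit4 and Phgdh did not differ beyond their spread, at 53.2 ± 0.207, 52.5 ± 0.934 and 50.4 ± 3.35 CPM per kilobase (SD, n = 2). The other neighbours in that order were apart in both Control libraries. In the Chrna4 libraries Ddit4, at 44.5 ± 5.89 CPM per kilobase, lay below Mthfd2 (54.5 ± 0.970) and Phgdh (56.4 ± 1.58). By this level per kilobase Atf4 was at the 98.9th percentile of tested genes and Psat1 at 98.7, while Psph was lowest at 77.3.

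The counts for the wider pathway that follow are to be read against the 9.26% of tested genes called higher and the 6.66% called lower. Those shares belong to the fit with all 4 libraries. Over all tested genes, more were called with a Control library left out and fewer with a Chrna4 library left out. Counts and lost calls from those fits have another background and do not by themselves single out a list or gene. Upstream of ATF4 are the 4 eIF2alpha kinases. Eif2ak2, which encodes PKR, the kinase that senses double-stranded RNA and is itself an interferon-induced gene, rose from 319 and 312 CPM in Control 1 and 3 to 415 and 417 CPM in Chrna4 1 and 2 (log2 0.40, SE 0.05, adjusted p = 0.000313 by limma-trend). The others did not pass. Eif2ak1, the haem-regulated kinase, had levels of 53.0 ± 1.90 CPM in Control and 56.0 ± 2.87 CPM in Chrna4 (SD, n = 2; adjusted p = 0.529 by limma-trend). Eif2ak3, which encodes PERK of the endoplasmic reticulum, had 59.9 ± 2.08 CPM in Control and 63.2 ± 5.70 CPM in Chrna4 (adjusted p = 0.583 by limma-trend). Eif2ak4, which encodes the amino acid sensor GCN2, had 32.7 ± 4.11 CPM in Control and 29.8 ± 3.32 CPM in Chrna4 (adjusted p = 0.447 by limma-trend). Its log2 change was -0.26 without Control 1 and -0.0085 without Control 3. Over the whole list of eIF2alpha kinases, subunits and phosphatase regulators, 1 of 12 tested was higher and 0 lower, near the shares of 9.26% and 6.66% over all tested genes. DESeq2 gave 2 calls in this list. More were called with either Control library left out, as over all tested genes, and also without Chrna4 2. The median log2 change of the list was 0.08.

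Among factors that act beside ATF4, 11 were tested, and of these, 3 were higher and 0 lower (median log2 0.08). More of them were called with either Control library left out, as over all tested genes. Cebpb, a C/EBP factor that pairs with ATF4 and is also induced in inflammation, rose from 29.9 and 22.9 CPM in Control 1 and 3 to 81.8 and 63.2 CPM in Chrna4 1 and 2 (log2 1.43, SE 0.13, adjusted p = 1.59e-05 by limma-trend). Atf3, a stress-induced ATF family member, rose from 129 and 101 CPM to 193 and 178 CPM in the same order (log2 0.69, SE 0.09, adjusted p = 0.000355 by limma-trend). Ddit3, which encodes CHOP, rose from 77.2 and 63.9 CPM to 89.2 and 88.1 CPM (log2 0.33, SE 0.08, adjusted p = 0.0193 by limma-trend). Each of the 3 had its higher Control value in Control 1. The Ddit3 call was lost without Chrna4 1 (adjusted p = 0.0701 by limma-trend) and without Chrna4 2 (adjusted p = 0.0559). TGATGNAA was in 3 of the 17 promoter windows of these 11 genes, those of Atf3, Jdp2 and Nupr1, against 2.23% of windows of tested genes. Of those 3 genes only Atf3 was called, and the windows of Cebpb and Ddit3 held no match. Among the lists described below, 4 of 28 windows of amino acid transporters held a match, those of Slc1a4, Slc7a11 and Slc7a7. Of these genes only Slc7a7 was called, and it was lower. Got1, Pycr1 and Vldlr also held a match and were not called, and Fgf21 held one but was not listed.

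Other stress-responsive genes moved in both directions, with 5 of 20 tested higher and 2 lower (median log2 0.07). Fewer of them were called with either Chrna4 library left out, as over all tested genes. Txnip, which encodes a thioredoxin-binding protein, rose from 18.4 ± 1.40 to 38.6 ± 0.884 CPM, 2.10-fold (SD, n = 2; adjusted p = 1.12e-05 by limma-trend). Sesn2, whose product senses leucine and restrains mTORC1, rose from 74.7 and 74.9 CPM in Control 1 and 3 to 103 and 91.1 CPM in Chrna4 1 and 2 (log2 0.37, SE 0.07, adjusted p = 0.00437 by limma-trend), a call lost without Chrna4 1 (adjusted p = 0.1004). Gdf15, a secreted stress cytokine, rose 1.31-fold, Bbc3, the p53 target Puma, 1.24-fold and Rpp38 1.27-fold, these 3 being named after their values were seen. Without Chrna4 1 none of those 3 passed (adjusted p = 0.166, 0.108 and 0.112 by limma-trend), and without Chrna4 2 Bbc3 (adjusted p = 0.0753) and Rpp38 (adjusted p = 0.346) did not. Rpp38 was not called under 6 of the 10 alternatives. Klhl24 fell to 0.633 and Ndrg1 to 0.716 of the Control mean.

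Among amino acid transporters 2 of 18 tested were higher and 2 lower (median log2 -0.01), near the shares over all tested genes. Testing every listed gene gave 2 calls. More were called with a Control library left out and fewer with a Chrna4 library left out, as over all tested genes. Slc7a5, the large neutral amino acid transporter LAT1 and an ATF4 target, rose from 183 and 180 CPM in Control 1 and 3 to 209 and 222 CPM in Chrna4 1 and 2 (log2 0.25, SE 0.06, adjusted p = 0.0133 by limma-trend), a call lost without Chrna4 1 (adjusted p = 0.0679) and without Chrna4 2 (adjusted p = 0.286). Slc7a2, a cationic amino acid transporter that is also induced in inflammation, rose from 1.496 ± 0.0689 to 3.85 ± 0.381 CPM (SD, n = 2; adjusted p = 0.00354 by limma-trend). Slc38a3, a glutamine transporter, fell to 0.721 of the Control mean, and Slc7a7, named after its value was seen, to 0.725. The Slc38a3 call was lost under 3 of the 10 alternatives, among them without Control 1 (adjusted p = 0.0671 by limma-trend) and without Chrna4 1 (adjusted p = 0.279). The Slc7a7 call was lost under 5, among them without Control 1 (adjusted p = 0.139), without Chrna4 1 (adjusted p = 0.182) and without Chrna4 2 (adjusted p = 0.118). Among one-carbon and glycine genes, Ahcy, of the methionine cycle, fell to 0.849 of the Control mean (adjusted p = 0.0423 by limma-trend). Its call was lost without Control 1 (adjusted p = 0.0529 by limma-trend), without Chrna4 1 (adjusted p = 0.166), without Chrna4 2 (adjusted p = 0.316) and with DESeq2 (adjusted p = 0.0653).

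Of other enzymes of amino acid synthesis and breakdown, 0 of 20 tested were higher and 4 lower (median log2 -0.06), beside 9.26% and 6.66% of all tested genes. With Control 3 left out more of them were called, as over all tested genes. Glul, which makes glutamine, fell from 224 and 209 CPM in Control 1 and 3 to 152 and 135 CPM in Chrna4 1 and 2 (log2 -0.59, SE 0.07, adjusted p = 8.79e-05 by limma-trend). The alanine aminotransferase gene Gpt fell to 0.736 of the Control mean, the transsulfuration gene Cbs to 0.541, and the urea cycle gene Asl, named after its value was seen, to 0.833. The Asl call was lost without Chrna4 1 (adjusted p = 0.321 by limma-trend), without Chrna4 2 (adjusted p = 0.113) and with DESeq2 (adjusted p = 0.0657). Of the 4 tested hepatocyte markers, Alb and Ttr fell to 0.447 and 0.487 of the Control mean, and Hnf4a (adjusted p = 0.181 by limma-trend) and Apob (adjusted p = 0.375) did not pass; their part in this list was not tested.

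Around Chac1, 0 of 12 tested glutathione genes were higher and 2 lower, near the shares over all tested genes. More were called with either Control library left out and fewer without Chrna4 2, as over all tested genes. Ggt1, the surface enzyme that opens extracellular glutathione breakdown, fell from 2.27 ± 0.0707 to 0.577 ± 0.0799 CPM (SD, n = 2; adjusted p = 0.00478 by limma-trend), and the oxoprolinase gene Oplah to 0.703 of the Control mean, a call lost without Chrna4 2 (adjusted p = 0.273). Around Ddit4, 1 of 22 tested mTORC1 regulators was higher, Sesn2, and 2 were lower, Deptor at 0.762 and Sesn1 at 0.673 of the Control mean. Deptor did not pass without Chrna4 2 (adjusted p = 0.0759 by limma-trend). Sesn1 did not pass under 6 of the 10 alternatives, which were edgeR (adjusted p = 0.0530), DESeq2 (adjusted p = 0.111) and each library left out (adjusted p from 0.0546 to 0.191 by limma-trend). More of these regulators were called without Control 3 and fewer without either Chrna4 library, as over all tested genes. Glucocorticoids are another input to Ddit4. Of 9 tested genes in that list, which holds glucocorticoid targets and the receptor gene, 3 were higher and 0 lower. The 3 were Per1 at 1.24-fold, the receptor gene Nr3c1 at 1.20-fold and Errfi1 at 1.20-fold. The other 6, among them Fkbp5 at 1.01-fold and Tsc22d3 at 1.05-fold, did not pass. Their Chrna4 means were from 0.923 (Mt2) to 1.07 (Klf9) times the Control means. Without Chrna4 1, 0 of the 9 were called, and without Chrna4 2 only Per1.

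**Figure D3:**
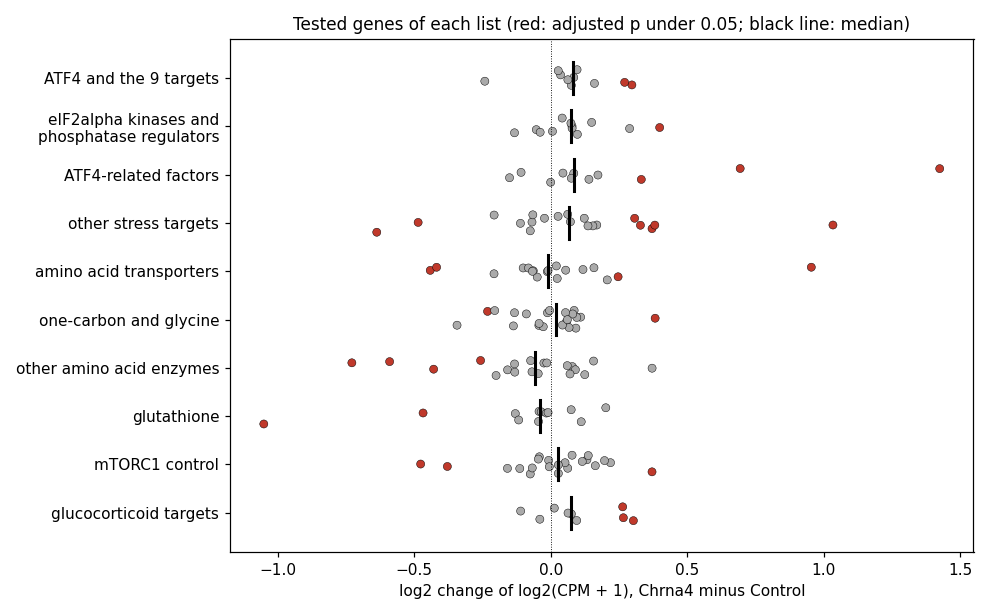
Each point is a tested gene, placed by its log2 change (horizontal axis, Chrna4 minus Control) in the row of its list, red where the adjusted p was under 0.05, with a black line at the list's median. The 10 genes at the top lie between -0.24 and 0.30, while among the factors beside ATF4 the point farthest to the right is Cebpb at 1.43.

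**Figure D4:**
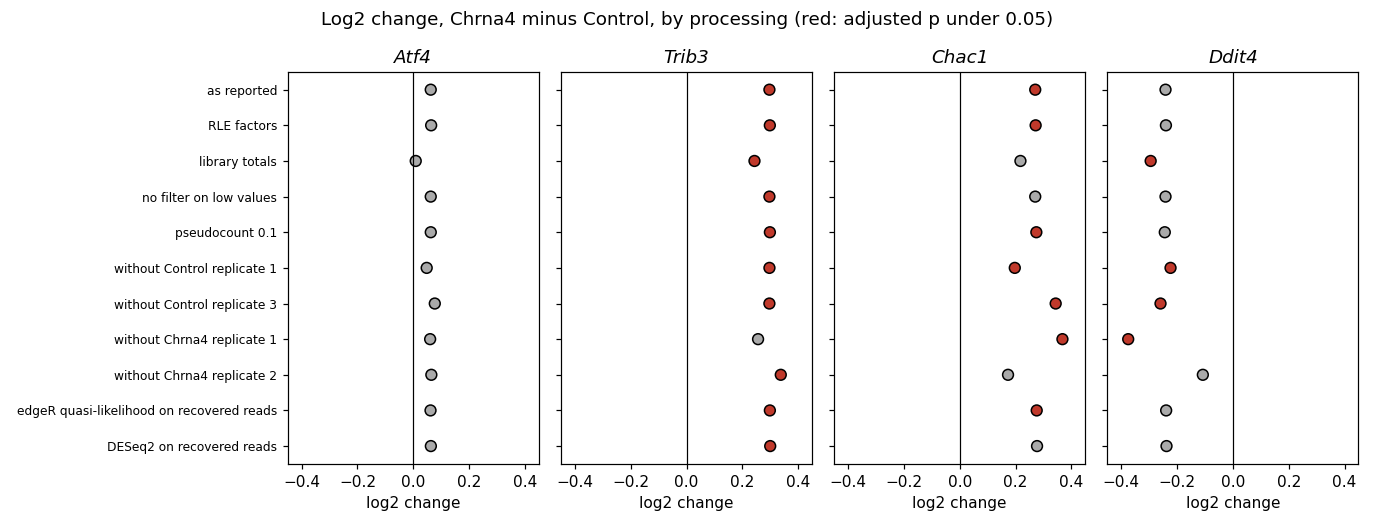
Log2 change of Atf4, Trib3, Chac1 and Ddit4 (horizontal axes, Chrna4 minus Control) as reported and under each of the 10 alternatives (rows), red where the adjusted p was under 0.05. Trib3 was called under 9 of the 10, Chac1 under 6, Ddit4 under 4 and Atf4 under 0.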

How the data were processed

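PolyA-selected Illumina libraries were made from AML12 cells, and the submitters' processing notes name TopHat2, HTSeq and mm10/GRCm38 without settings. The authors deposited per-library signal values, CPM on a scaled library size, of which 100% were whole multiples of 1 read within 0.01 reads, so reads were recovered. TMM factors recomputed from those reads matched the deposited scaling within a relative 5.1e-15. Per the file headers, the authors also deposited their comparison, with log2 values for fold change and mean CPM and with p-values before and after adjustment, made with a tool that the sources used here do not name.

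The test was limma-trend (limma 3.58.1, R 4.3.3) on log2(CPM + 1), a scale that understates changes of low genes, over the 11298 genes whose mean reached 1 CPM. P-values were adjusted by Benjamini-Hochberg over all of them, with a threshold of 0.05. The fit had 2 residual and 9.55 prior degrees of freedom. It was tested on simulated data.

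Results were recomputed with RLE factors, with plain library totals, without the filter, with a pseudocount of 0.1, with each library left out, and with edgeR 4.0.16 and DESeq2 1.42.0 on recovered reads. The edgeR quasi-likelihood test called 1802 of the 11298 genes. The genes and lists were chosen with earlier results of these data known. Named genes are the 10, Chrna4, the 4 kinases, Ddit3, Atf3 and Cebpb, in each list the 3 called genes with the lowest adjusted p, and the 3 genes closest to Atf4 in profile; some results under this rule are not reported here. GENCODE M21 on GRCm38 (98.9% of identifiers matched) gave coordinates and exon lengths, and RefSeq gave promoter windows. Intervals on reads cover counting error only.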

Additional observations from a re-analysis of the deposited data

How the results depend on the processing

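Of the 10 genes, 2 were called as reported, both higher. With library totals 2 were called, 1 higher and 1 lower, and 1179 genes of the whole table were lower and 812 higher, against 752 and 1046. Without the filter 1 was called (1 higher), and with DESeq2 1 (1 higher). With 1 library left out, 1 to 5 were called, 1 to 4 higher and 0 to 1 lower; over all genes 927 to 3011 were called, 602 to 1718 higher and 325 to 1296 lower, and among the other pathway genes 14 to 44 against 28. Leaving out Control 1 gave 2920 calls over all genes and Control 3 gave 3011, whereas leaving out Chrna4 1 gave 1030 and Chrna4 2 gave 927. The log2 change turned in sign for Psat1 (-0.0265) and Mthfd2 (-0.0179) with library totals, which shift the median of all tested genes by -0.0525, about as far as each of these genes moved. With 1 library left out it ranged from -0.000604 to 0.151 for Shmt2 and from -0.0170 to 0.165 for Eif2ak3. RLE factors, the pseudocount of 0.1 and edgeR left the number called among the 10 at 2. With 1 library left out, the lone library of its group is assumed to vary like the other pair. No paired analysis was possible because the groups share only 1 replicate number. Counting error was at most 2.43% of the level for any of the 10 genes.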
